A study of Mus musculus with 10 samples.

Results

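The genes described here carry out and control the synthesis of cholesterol and of fatty acids, and were measured in tumour-associated macrophages by RNA sequencing. A list of 34 gene symbols was set, and the row of each symbol was looked up in all 10 sample tables. A row was found for 33 of the 34 among the 46957 loci listed, and Mvd, which encodes an enzyme of the mevalonate pathway, was not analysed here. The 33 comprise 4 regulators, 17 enzymes of sterol synthesis, the sterol carrier Stard4 and 11 genes of fatty acid synthesis, desaturation and elongation.

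The macrophages came from tumours grown in BALB/cJ mice after 100000 cells of 4T1, a mouse mammary carcinoma line, were placed in the mammary fat pad. The vehicle group of 5 samples received PBS, and the JHU083 group of 5 samples received 1 mg/kg of JHU083 from day 7 to day 13; both groups were harvested on day 14. JHU083 releases 6-diazo-5-oxo-L-norleucine (DON), which blocks enzymes that use glutamine. Live cells (7AAD-) were sorted as CD45+, CD11b+ and F4/80+ and as CD8-, Ly6C- and Ly6G-, so the samples are one gate of the tumour's leukocytes. All mice carried a tumour, and neither the age of the mice nor whether a sample came from 1 mouse or a pool is given in the sources used here, so the p-values measure the spread between these samples.

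Sterol and fatty acid synthesis start from the same 2-carbon unit, acetyl-CoA. Both pathways are driven by the sterol regulatory element-binding proteins (SREBPs), which are made as precursors in the endoplasmic reticulum. Scap carries the precursors to the Golgi, where they are cut to release the active factor, and the Insig proteins hold Scap back when sterols are plentiful. SREBP-2 acts mainly on sterol genes and SREBP-1c mainly on fatty acid genes. Macrophages also take up sterols from dead cells and debris and export them under the control of the liver X receptors, which are switched on by oxysterols and by intermediates of cholesterol synthesis.

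Depth ran from 11147870 to 14575932 fragments per vehicle sample and from 13638381 to 15740701 per JHU083 sample, so each JHU083 library was deeper than 4 of the 5 vehicle libraries. The lowest count of any of the 33 genes in any sample was 44 fragments, and all 33 passed the filter on low counts. In 3 vehicle and 2 JHU083 samples, 2 rRNA-derived loci were listed at 0, against 2.87% to 5.59% of fragments in the other 5. Levels are given as counts relative to library size (CPM) after scaling between libraries, and a gene was called where edgeR's quasi-likelihood test gave an adjusted p under 0.05. Of 12500 loci tested, 36.7% were called, 18.4% as higher and 18.3% as lower in JHU083, and the median log2 fold change was 0.01. When libraries were scaled by their totals only, 1564 loci were higher and 3141 lower, and the median was -0.07.

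Against that background, 25 of the 33 genes were lower in the JHU083 samples and 8 were not called. No gene was called higher by edgeR, DESeq2 or limma-voom, and in each of these tools 0 were higher at an unadjusted p under 0.05. The lower genes made up 75.8% of the 33, against 18.3% of all loci. In the 5 samples with the rRNA-derived loci at 0, 12 of the 33 were called lower, and in the other 5 samples 23 were; these fits have fewer samples, and called 4.61% and 11.7% of all loci lower. The median log2 fold change of the 33 was -0.39, from -1.74 for Fads2 to 0.15 for Insig1, and 31 of the 33 were negative, or 32 when libraries were scaled by their totals only and Fdft1 turned negative. In 23 genes every JHU083 sample lay below every vehicle sample, whether called or not, which held for 11.1% of all loci tested. A fall of at least 0.5 on the log2 scale was called in 13 genes, against 10.7% of all loci.

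**Figure D1:**
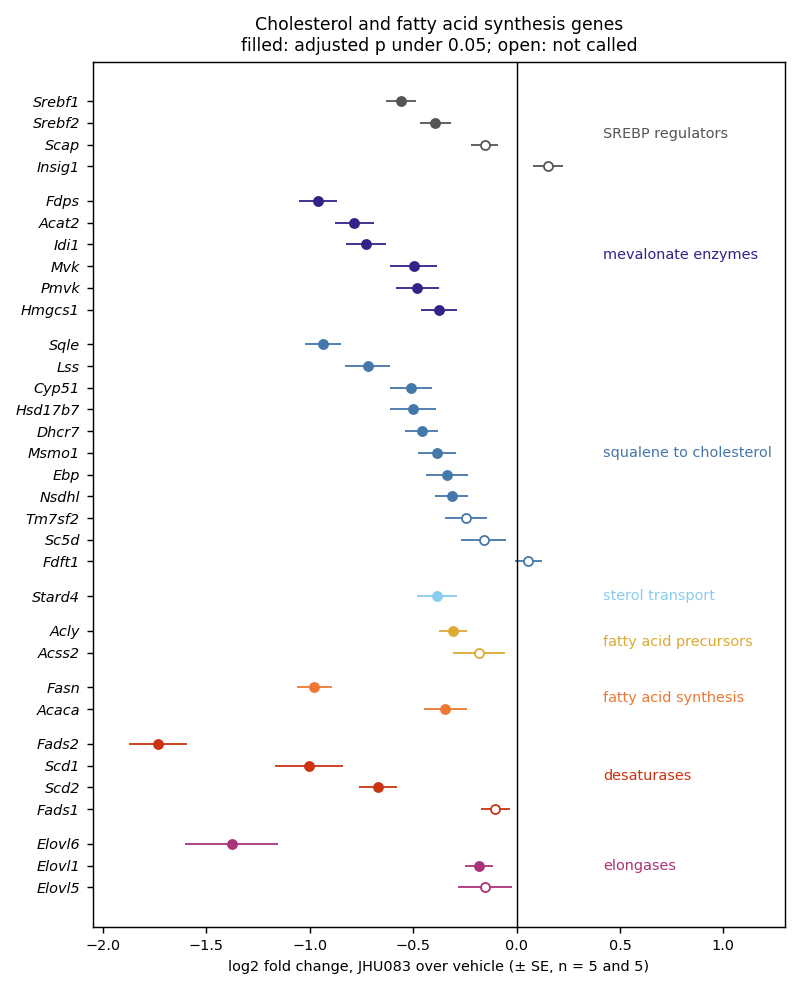
Log2 fold change of each gene in JHU083 over vehicle samples (x axis, dots, bars are SE, 5 samples a group), grouped by role, with filled dots for an adjusted p under 0.05. All but Insig1 and Fdft1 lie left of 0 (Fdft1 turned to -0.02 with scaling by library totals only), and Fads2 (-1.74) and Elovl6 (-1.38) lie farthest.

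The genes of the SREBP transcription factors were lower, and those of their escort and anchor were not called. Srebf1, which encodes SREBP-1 (chromosome 11, 60199089 to 60222581, minus strand, GRCm38), stood at 115, 111, 105, 124 and 127 CPM in the vehicle samples and at 83.0, 80.0, 81.0, 73.6 and 77.1 CPM in the JHU083 samples. Its log2 fold change was -0.56 ± 0.07 (SE, edgeR adjusted p = 6.84e-05), a fall of 32.1% with a wide gap between the groups. Its locus also lists the microRNA gene Mir6922. Srebf2, which encodes SREBP-2, fell from 183 ± 5.22 to 140 ± 15.0 CPM (SD, n = 5 and 5), with a log2 fold change of -0.39 ± 0.08 (edgeR adjusted p = 0.00125). JHU083 replicate 1 held 166 CPM of Srebf2, while the other 4 lay between 131 and 136 CPM, and all 5 were below the vehicle range of 178 to 191 CPM.

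Insig1, which encodes the anchor that retains Scap and is itself a well-known sterol-responsive gene, was the member with the most positive value. It stood at 145 ± 13.2 CPM in vehicle and 162 ± 6.86 CPM in JHU083 samples, a log2 fold change of 0.15 ± 0.07 (edgeR adjusted p = 0.115). The groups overlapped, since vehicle replicate 3 held 167 CPM against a JHU083 range of 152 to 169 CPM. Without that library the value was 0.21 (edgeR adjusted p = 0.0326). Scap was at 63.0 ± 0.436 CPM in vehicle and 56.6 ± 2.79 CPM in JHU083 samples. All JHU083 samples lay below all vehicle samples for Scap, but its log2 fold change of -0.15 ± 0.07 did not pass (edgeR adjusted p = 0.0771); with DESeq2 it was -0.16 (adjusted p = 0.0364).

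**Figure D2:**
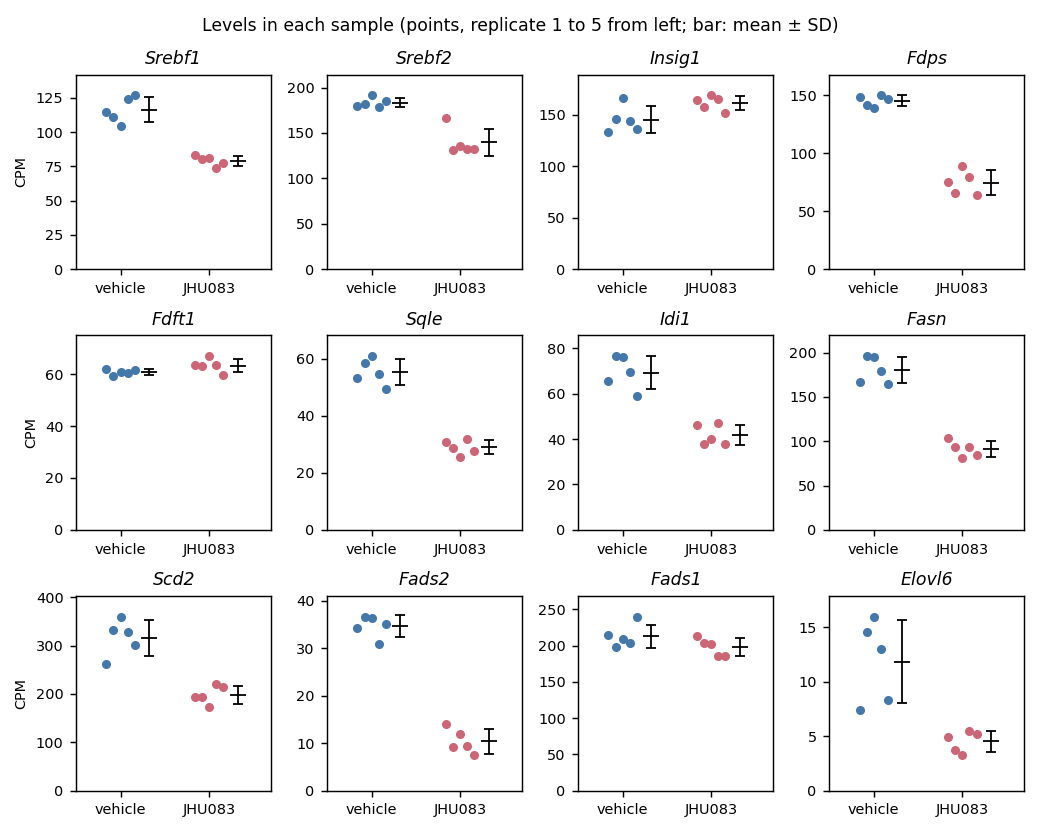
Level of 12 of the genes in each sample (CPM, y axes from 0), with points in replicate order 1 to 5 and a bar for the mean and SD of each group. The groups are apart for 9 of the genes and overlap for Insig1, Fdft1 and Fads1.

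All 6 measured genes of the mevalonate pathway, which builds the isoprenoid units of sterols, were lower, with a median log2 fold change of -0.61. Acat2, whose enzyme joins acetyl-CoA units, stood at 20.9, 22.6, 22.3, 20.6 and 22.1 CPM in vehicle and at 11.5, 11.2, 13.7, 12.7 and 13.9 CPM in JHU083 samples. The 2 groups were well apart, and the fall was 41.9% (log2 fold change -0.78 ± 0.09, edgeR adjusted p = 3.25e-05). Hmgcs1, which encodes the HMG-CoA synthase that follows, fell from 78.5 ± 6.69 to 60.5 ± 5.74 CPM (-0.38 ± 0.09, edgeR adjusted p = 0.00402). The kinases Mvk and Pmvk changed by -0.50 ± 0.11 and -0.48 ± 0.10, and the Mvk groups overlapped.

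Idi1 and Fdps act at the end of this pathway. Idi1, which interconverts the 5-carbon isoprenoid units, stood at 65.7, 76.5, 76.2, 69.4 and 58.8 CPM in vehicle and at 46.1, 37.9, 40.2, 47.3 and 37.7 CPM in JHU083 samples, a fall of 39.7%. Its log2 fold change was -0.73 ± 0.10 (edgeR adjusted p = 7.8e-05), and no sample of one group reached the other. Fdps, the synthase of farnesyl diphosphate (chromosome 3, 89093588 to 89101959, minus strand), stood at 149, 142, 139, 150 and 146 CPM in vehicle and at 75.1, 65.5, 89.4, 79.4 and 63.8 CPM in JHU083 samples. The groups were far apart, and the fall was 48.6% (-0.96 ± 0.09, edgeR adjusted p = 6.34e-06). The Fdps locus also lists Gm43738 and Rusc1, whose fragments cannot be told apart from those of Fdps in these tables.

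Of the 11 genes that lead from farnesyl diphosphate through squalene to cholesterol, 8 were lower, and their median log2 fold change was -0.38. Fdft1, the squalene synthase that commits farnesyl diphosphate to sterols, stood at 61.9, 59.4, 60.6, 60.4 and 61.8 CPM in vehicle and at 63.3, 63.3, 66.9, 63.4 and 59.6 CPM in JHU083 samples. Its groups overlapped, and its log2 fold change was 0.06 ± 0.06 (edgeR adjusted p = 0.51), or -0.02 when libraries were scaled by their totals only. Sqle, the squalene epoxidase that acts next and is a rate-limiting step, stood at 53.0, 58.5, 60.8, 54.6 and 49.2 CPM in vehicle and at 30.8, 28.7, 25.6, 31.7 and 27.6 CPM in JHU083 samples. The lowest vehicle sample was far above the highest JHU083 sample, and the fall was 47.7% (-0.94 ± 0.09, edgeR adjusted p = 5.22e-06).

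The next enzymes close and trim the sterol ring system, and 3 of them fell by at least 0.5 on the log2 scale. Lss, which forms lanosterol, stood at 20.1, 20.4, 22.2, 16.4 and 19.2 CPM in vehicle and at 11.6, 11.3, 12.2, 14.2 and 10.5 CPM in JHU083 samples (-0.72 ± 0.11, edgeR adjusted p = 0.000235). Cyp51, which removes a methyl group from lanosterol, stood at 120, 113, 118, 100.2 and 104 CPM in vehicle and at 92.5, 66.1, 76.9, 87.5 and 66.9 CPM in JHU083 samples (-0.51 ± 0.10, edgeR adjusted p = 0.00151). Hsd17b7, a keto-reductase of the same steps, stood at 15.8, 14.8, 14.9, 11.6 and 13.5 CPM in vehicle and at 9.07, 9.87, 9.62, 10.2 and 11.001 CPM in JHU083 samples (-0.50 ± 0.11, edgeR adjusted p = 0.00289). None of these 3 genes overlapped between groups, although the margin was narrow for Hsd17b7.

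A further 4 genes of the later steps, which carry out demethylation, isomerization and reduction, fell by less than 0.5 on the log2 scale. These were Msmo1 (-0.38 ± 0.09), Nsdhl (-0.31 ± 0.08), Ebp (-0.34 ± 0.10) and Dhcr7 (-0.46 ± 0.08), with edgeR adjusted p values of 0.00564, 0.00785, 0.0186 and 0.000598. Dhcr7 encodes the reductase that turns 7-dehydrocholesterol into cholesterol. Ebp overlapped between groups and was no longer called without vehicle replicate 1 (-0.30, edgeR adjusted p = 0.0517). Tm7sf2 and Sc5d did not pass, at -0.25 ± 0.10 and -0.16 ± 0.11 (edgeR adjusted p = 0.0717 and 0.265). The Tm7sf2 locus also lists Vps51, Zfpl1 and Gm28374, so its value belongs to the 4 together; it was called in 3 of the 10 fits that leave out a sample. Stard4, which moves cholesterol between membranes, fell from 36.3 ± 4.80 to 27.8 ± 1.40 CPM (-0.39 ± 0.10, edgeR adjusted p = 0.00649).

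SREBPs bind sterol regulatory elements in promoters, usually beside sites for the factors NF-Y and Sp1. Promoter sequences from RefSeq (GRCm38.p6) matched 26 of the 33 genes, and the 250 bases before each start in that table were searched on both strands. Some genes have several starts, so a gene was counted where any of its windows held the motif, and the share of all 27025 genes in the table was counted in the same way. The motifs were the sterol regulatory element core CACNCCAC, the CCAAT box, the GC box GGGCGG and the E-box CACGTG. The element core was found in 3 of the 26 genes, Acat2, Hmgcs1 and Insig1, against 6.05% of all genes. The CCAAT box was found in 20 of the 26 and the GC box in 21, against 37.5% and 35.4% of all genes. Among the matched genes, 15 of the 20 lower and 5 of the 6 uncalled genes had a CCAAT box, 16 of 20 and 5 of 6 a GC box, and 2 of 20 and 4 of 6 an E-box, which 6.86% of all genes hold. Matches thus occurred in lower and in uncalled genes, and a match is a description of the sequence only.

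The promoters of Hmgcs1 and Acat2 are shown because they hold the element core in genes that were lower; Fasn is shown for a lower gene with CCAAT boxes only, and Elovl5 for a gene that was not called. Capitals mark matches to any of the 4 motifs, and each sequence runs 5′ to 3′ on the gene's strand. Hmgcs1 is chr13:119690101-119690350 (plus strand), Acat2 is chr17:12960726-12960975 (minus strand), Fasn is chr11:120824548-120824797 (minus strand) and Elovl5 is chr9:77917115-77917364 (plus strand).
Hmgcs1: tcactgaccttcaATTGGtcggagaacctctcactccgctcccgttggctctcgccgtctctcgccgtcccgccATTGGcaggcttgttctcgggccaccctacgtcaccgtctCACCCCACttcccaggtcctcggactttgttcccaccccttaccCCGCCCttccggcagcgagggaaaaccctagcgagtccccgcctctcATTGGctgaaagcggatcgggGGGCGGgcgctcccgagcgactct
Acat2: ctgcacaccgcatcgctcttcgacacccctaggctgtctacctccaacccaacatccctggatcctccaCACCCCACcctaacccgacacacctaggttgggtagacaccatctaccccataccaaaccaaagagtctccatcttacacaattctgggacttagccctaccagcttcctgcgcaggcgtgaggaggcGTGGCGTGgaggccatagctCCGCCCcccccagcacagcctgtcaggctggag
Fasn: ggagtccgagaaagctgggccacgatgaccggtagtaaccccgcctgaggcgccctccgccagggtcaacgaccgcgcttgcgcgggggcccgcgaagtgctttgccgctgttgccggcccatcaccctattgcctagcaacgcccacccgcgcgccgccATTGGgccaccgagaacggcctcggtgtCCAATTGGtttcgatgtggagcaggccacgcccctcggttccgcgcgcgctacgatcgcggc
Elovl5: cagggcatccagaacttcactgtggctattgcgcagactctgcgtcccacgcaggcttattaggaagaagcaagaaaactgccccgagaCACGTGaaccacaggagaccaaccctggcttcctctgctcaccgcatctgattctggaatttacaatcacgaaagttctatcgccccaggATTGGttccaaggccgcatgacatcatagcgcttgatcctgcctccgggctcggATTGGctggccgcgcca
Positions are counted to the start that RefSeq lists, which for Hmgcs1 was not matched to a transcript start in the GENCODE annotation. In Hmgcs1 the element core starts 136 bases before that start, with 3 CCAAT boxes and 2 GC boxes in the window. Acat2 holds 2 element cores, 181 and 53 bases before its listed start, and 1 GC box. Fasn holds 3 CCAAT boxes, and Elovl5 holds 2 CCAAT boxes and 1 E-box.

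Fatty acid synthesis begins with cytosolic acetyl-CoA. Acly, which makes it from citrate, stood at 507 ± 19.8 CPM in vehicle and 410 ± 27.8 CPM in JHU083 samples (-0.31 ± 0.07, edgeR adjusted p = 0.00269). Acss2, which makes acetyl-CoA from acetate, was at 8.57 ± 0.972 and 7.56 ± 0.819 CPM and was not called (-0.18 ± 0.13, edgeR adjusted p = 0.275). Acaca, the carboxylase that makes malonyl-CoA, went from 51.3 ± 6.30 to 40.4 ± 4.79 CPM with overlapping groups (-0.34 ± 0.10, edgeR adjusted p = 0.0188). With the replicate numbers as a block the Acaca call was lost (-0.34, edgeR adjusted p = 0.0527).

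Fasn, the synthase that builds palmitate (chromosome 11, 120805846 to 120824547, minus strand), stood at 167, 196, 195, 179 and 165 CPM in vehicle and at 104, 94.0, 81.3, 93.7 and 84.7 CPM in JHU083 samples. Every JHU083 sample was well below the lowest vehicle sample, and the fall was 49.2% (-0.98 ± 0.08, edgeR adjusted p = 3.2e-06). The fold change of Fasn was larger in size than that of Acaca, the step just before it, a difference that was not tested.

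The desaturases gave the largest and one of the smallest changes among the 33 genes. Fads2, the delta-6 desaturase of polyunsaturated fatty acid synthesis (chromosome 19, 10062765 to 10101746, minus strand), stood at 34.4, 36.6, 36.4, 30.8 and 35.1 CPM in vehicle and at 14.1, 9.12, 11.9, 9.48 and 7.53 CPM in JHU083 samples. The fall was 70.0% (-1.74 ± 0.14, edgeR adjusted p = 2.28e-06), with the highest JHU083 sample far below the lowest vehicle sample. Fads1, the delta-5 desaturase that acts later in the same route and lies close by on the chromosome (10182888 to 10196877, plus strand), stood at 213 ± 16.1 CPM in vehicle and 198 ± 12.2 CPM in JHU083 samples. Its groups overlapped, and it was not called (-0.10 ± 0.07, edgeR adjusted p = 0.28).

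Scd1 and Scd2 encode delta-9 desaturases, which make oleate and palmitoleate. Scd1 stood at 10.2, 16.3, 17.8, 13.6 and 10.5 CPM in vehicle and at 6.75, 7.06, 6.49, 8.03 and 5.76 CPM in JHU083 samples (-1.003 ± 0.17, edgeR adjusted p = 0.000423). Scd2 stood at 261, 333, 359, 327 and 301 CPM in vehicle and at 193, 194, 173, 220 and 214 CPM in JHU083 samples (-0.67 ± 0.09, edgeR adjusted p = 0.000101). Both were apart between groups. The Scd2 locus also lists Mir5114.

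Of the 3 elongases among the 33 genes, Elovl6, which lengthens palmitate to stearate, had the most negative fold change and a low level. It stood at 7.40, 14.6, 15.9, 13.0 and 8.30 CPM in vehicle and at 4.91, 3.77, 3.28, 5.50 and 5.24 CPM in JHU083 samples. The vehicle samples varied widely, yet none reached the JHU083 range (-1.38 ± 0.22, edgeR adjusted p = 0.000369, a fall of 61.5%). Elovl1, which acts on very long chains, was at -0.18 ± 0.07 (edgeR adjusted p = 0.0498) and lost its call in 13 of 22 alternative analyses. Elovl5, which lengthens polyunsaturated chains, stood at 80.3 ± 5.75 CPM in vehicle and 72.2 ± 17.0 CPM in JHU083 samples and was not called (-0.15 ± 0.13, edgeR adjusted p = 0.373). JHU083 replicate 1 held 98.5 CPM of Elovl5, above every vehicle sample, and without it the value was -0.29 (edgeR adjusted p = 0.0448).

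Set side by side, 14 of 17 sterol enzymes and 8 of 11 fatty acid genes were lower, or 82.4% and 72.7%. The median log2 fold change was -0.48 for the sterol enzymes (from -0.96 to 0.06) and -0.34 for the fatty acid genes (from -1.74 to -0.10). The fatty acid genes thus ranged more widely, with the 3 most negative values of all 33 in Fads2, Elovl6 and Scd1. Groups were apart, with JHU083 below, for 12 of the 17 and 7 of the 11. A difference between the 2 branches was not tested. As a mean of centred log2 CPM, the sterol enzymes lay between 0.21 and 0.28 in vehicle and between -0.36 and -0.16 in JHU083 samples. The fatty acid genes lay between 0.20 and 0.45 in vehicle and between -0.43 and -0.16 in JHU083 samples. The groups were apart on both means, which are drawn from the same genes and samples as the calls.

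**Figure D3:**
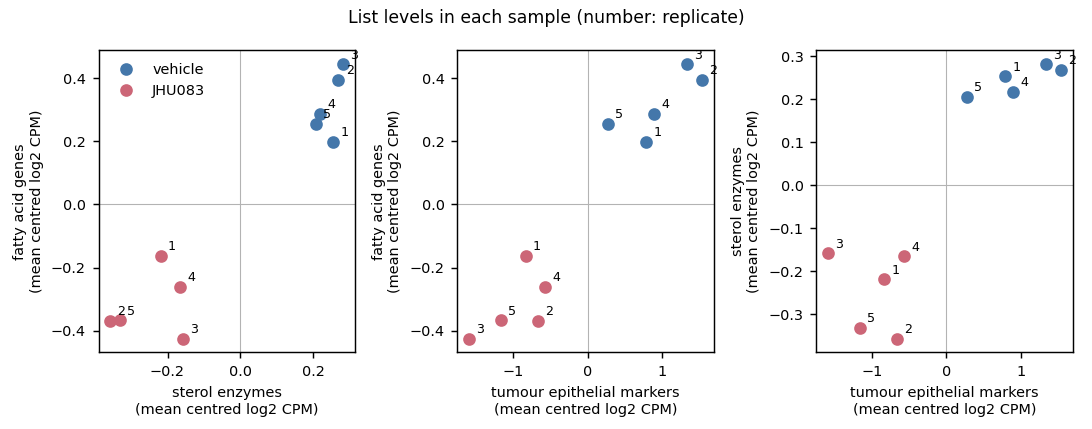
Mean centred log2 CPM of the sterol enzymes, the fatty acid genes and 10 tumour epithelial marker genes in each sample (dots, numbered by replicate). Vehicle samples lie above 0 and JHU083 samples below 0 on all 3 measures.

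Pairs of genes with related roles were compared in how far they moved. The log2 ratio of Fdps to Fdft1 fragments was 1.25 ± 0.04 (SD, n = 5) in vehicle and 0.23 ± 0.15 (n = 5) in JHU083 samples, a difference of -1.03. For Fads2 to Fads1 it was -2.61 ± 0.14 and -4.26 ± 0.28, and for Elovl6 to Elovl5 it was -2.81 ± 0.43 and -3.94 ± 0.23. In these 3 pairs the groups were apart in the ratio, which does not depend on how libraries are scaled. The ratio of Scd1 to Scd2 (-4.54 ± 0.21 and -4.84 ± 0.20) and of Srebf1 to Srebf2 (-0.66 ± 0.14 and -0.82 ± 0.12) overlapped between groups. The 5 pairs were chosen after the values were seen, so the ratios are a description without a test.

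Levels can be compared between genes only per length, as fragments relative to transcript length and library size (FPKM). The deposited normalized values were read as such, without a check against lengths. In vehicle samples the highest mean FPKM was that of Acly and of Fdps, both at 125 (SD 8.09 and 2.99), so the 2 did not differ beyond their spread. The lowest were Scd1 at 2.71 and Elovl6 at 2.19 FPKM. In JHU083 samples Fdps was at 61.9 FPKM against 109 for Acly, with SDs of 8.75 and 6.58. Insig1 was at 53.9 and 60.3 FPKM, Srebf2 at 35.2 and 26.9 FPKM, and Srebf1 at 31.8 and 20.6 FPKM in vehicle and JHU083 samples. Among the desaturases the vehicle order was Fads1 (60.2 FPKM), Scd2 (55.4), Fads2 (24.6) and Scd1 (2.71), and in JHU083 samples Fads2 was at 7.42 FPKM. The vehicle means of Fads1 and Scd2 differed by less than the SD of Scd2 (6.64 FPKM) and by more than that of Fads1 (4.46 FPKM). Of the 23 genes whose CPM were apart between groups, 7 overlapped in the deposited FPKM, namely Scap, Lss, Cyp51, Hsd17b7, Dhcr7, Stard4 and Acly. Cyp51 was at 33.7 ± 6.43 and 29.7 ± 5.55 FPKM and Lss at 5.48 ± 1.92 and 3.80 ± 1.497 FPKM in vehicle and JHU083 samples.

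**Figure D4:**
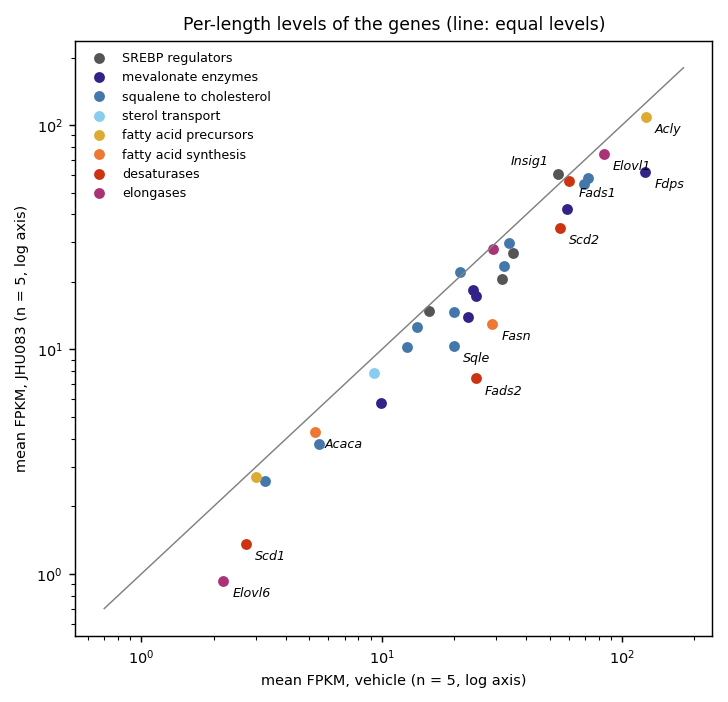
Mean FPKM of each of the 33 genes in vehicle (x axis) and JHU083 samples (y axis), both on log axes, with a line of equal levels and colours for roles. Fads2 and Fdps lie well below the line, and Fads1 and Insig1 lie near it.

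The other lipid lists are read against the 36.7% of all loci that were called. Of 15 other genes of SREBP processing and sterol sensing, 3 were higher and 1 lower (26.7%), a share below that background, and the median log2 fold change was 0.08. Lpin1, a phosphatidate phosphatase that also restrains nuclear SREBP, rose from 19.5 to 34.6 CPM (0.83 ± 0.13, edgeR adjusted p = 0.000342). Paqr3, which tethers the Scap complex to the Golgi, rose by 0.61 ± 0.19 (edgeR adjusted p = 0.0197) with overlapping groups. The Paqr3 call was lost without vehicle replicate 1 (0.51, edgeR adjusted p = 0.0511), without JHU083 replicate 2 (0.49, 0.0598) and in the samples with the rRNA-derived loci at 0 (0.27, 0.413). Tmem97, a sterol-responsive gene, fell from 40.6 to 24.8 CPM (-0.71 ± 0.11, edgeR adjusted p = 0.000324). The 13 genes of the isoprenoid branch, which use farnesyl diphosphate for products other than sterols, had a median of 0.03, with 2 higher (Nus1 and Fnta) and 3 lower (Pdss1, Dhdds and Coq2), or 38.5% called, near the background. Of 22 alternatives, the call was lost in 12 for Coq2, 10 for Dhdds, 10 for Fnta, 9 for Nus1 and 2 for Pdss1. Under the replicate block the adjusted p was 0.0875 for Coq2, 0.102 for Dhdds, 0.0928 for Fnta and 0.0762 for Nus1 (edgeR).

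Of 17 tested genes of sterol efflux, oxysterols and esterification, 7 were higher and 1 lower (47.1%), with a median of 0.13. Abcg1, which exports cholesterol to lipoproteins, rose from 56.7 ± 6.03 to 105 ± 7.16 CPM (0.88 ± 0.08, edgeR adjusted p = 6.86e-06). Mylip, a ligase induced by the liver X receptors that lowers lipoprotein uptake, rose from 43.8 to 82.6 CPM (0.91 ± 0.09, edgeR adjusted p = 1.26e-05). Cyp27a1, which makes 27-hydroxycholesterol, rose from 31.3 to 52.2 CPM (0.74 ± 0.08, edgeR adjusted p = 1.66e-05). The one gene that fell was Ch25h, which makes 25-hydroxycholesterol, from 38.5 to 19.0 CPM (-1.02 ± 0.13, edgeR adjusted p = 4.7e-05). The genes Abca1, Gramd1b, Lipa and Nceh1 make up the 7 that rose and were named after their values were seen. Abca1, the exporter to lipid-poor particles, went from 355 ± 68.2 to 721 ± 162 CPM (1.02 ± 0.16, edgeR adjusted p = 0.000332) and JHU083 replicate 3, at 444 CPM, lay below the highest vehicle sample at 452 CPM. The receptor gene Nr1h2 was at -0.03 (edgeR adjusted p = 0.808), a value whose sign turned in 4 alternatives.

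Of 23 tested partners of fatty acid synthesis and lipid assembly, 2 were higher and 6 lower (34.8%, near the background), with a median of -0.18. Me1, the malic enzyme that supplies NADPH, fell from 2.43 to 0.887 CPM (-1.44 ± 0.27, edgeR adjusted p = 0.00118), and Slc25a1, the mitochondrial citrate carrier, fell by 0.53 ± 0.10 on the log2 scale (edgeR adjusted p = 0.00142). Agpat3, an acyltransferase of phospholipid synthesis, rose by 0.60 ± 0.10 (edgeR adjusted p = 0.000317). Acyl-CoA synthetases differed, with Acsl5 at -0.38 ± 0.07 and Acsl1 at 0.33 ± 0.09 (edgeR adjusted p = 0.000522 and 0.0119). The elongase Elovl7, named after its value was seen, was at -1.70 ± 0.47 (edgeR adjusted p = 0.0115) with overlapping groups, from 1.87 to 0.577 CPM.

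Of 17 tested genes of fatty acid oxidation, 2 were higher and 1 lower (17.6%, below the background), with a median of 0.10. Cpt1a, the carnitine transferase that admits long chains to mitochondria, rose from 72.8 ± 4.47 to 125 ± 16.6 CPM (0.78 ± 0.09, edgeR adjusted p = 3.25e-05). The carnitine carrier Slc25a20 rose by 0.37 ± 0.11 (edgeR adjusted p = 0.0162). Cpt2, the partner transferase of the inner membrane, fell by 0.38 ± 0.12 on the log2 scale (edgeR adjusted p = 0.0207); its call was lost in 6 of 22 alternatives. The adjusted p of Cpt2 was 0.06 with the replicate block, 0.0622 without vehicle replicate 1, 0.0535 without vehicle replicate 5 and 0.0523 without JHU083 replicate 4 (edgeR).

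**Figure D5:**
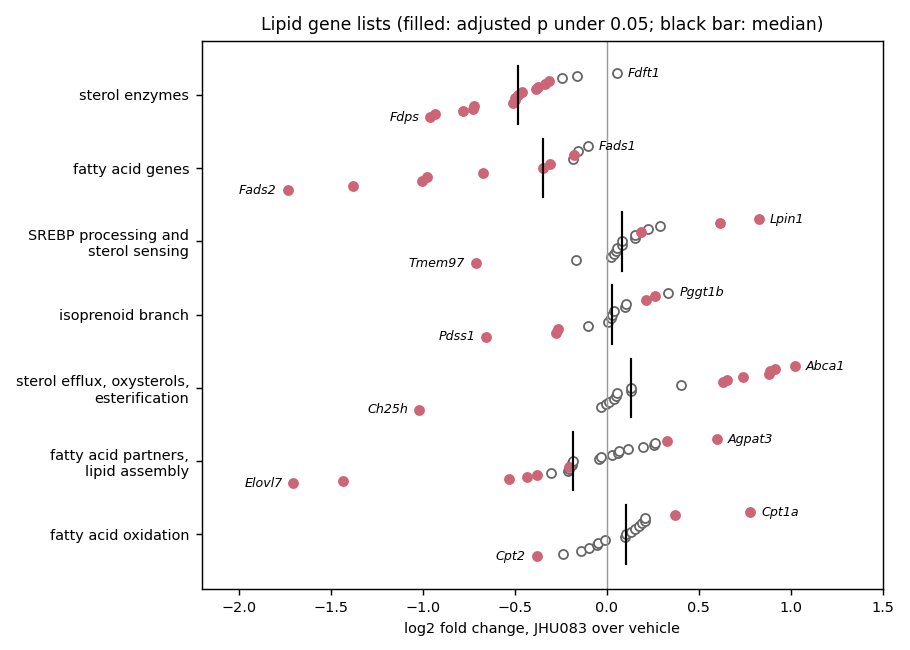
Log2 fold change, JHU083 over vehicle, of each gene (dots) in the sterol enzymes, the fatty acid genes and 5 other lipid lists, with filled dots for an adjusted p under 0.05 and a bar at each median. The medians lie at -0.48 and -0.34 for the first lists named and between -0.18 and 0.13 for the other 5.

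In a sorted bulk sample, fewer cells of a type and less RNA per cell cannot be told apart. Some markers of other cells, and genes of the cell cycle, moved along with these genes. All 10 tumour epithelial markers were lower, with a median log2 fold change of -1.85, and their summed level was 229 to 596 CPM in vehicle and 71.3 to 157 CPM in JHU083 samples. Of 10 cell cycle genes, 8 were lower, and their sum was 768 to 909 CPM in vehicle and 469 to 554 CPM in JHU083 samples. Of 7 fibroblast genes, 5 were lower (103 to 226 and 25.9 to 115 CPM), with overlapping groups in all 7. Of 4 tested endothelial genes 1 was lower, Pecam1. Among all loci tested, 18.3% were called lower and 18.4% higher. Of 8 macrophage genes, 4 were higher, including Adgre1, which encodes F4/80, and 4 were not called (Ptprc, Itgam, Cd68 and Fcgr1). The sum of the 8 was 10680 to 12403 CPM in vehicle and 14266 to 19375 CPM in JHU083 samples. Most of that sum was Lyz2, with means of 6980 CPM in vehicle and 10458 CPM in JHU083 samples. The part of other cells or of the cell cycle in the falls was not tested.

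Adipocyte genes were near 0, since none of the 8 exceeded 5 fragments in any sample, and Adipoq, Lep and Adig were listed at 0 in all vehicle samples. The markers of neutrophils (95.1 to 108 and 95.3 to 146 CPM), eosinophils, dendritic, T, NK and B cells did not show a common fall. Of the 12 tested, 2 were lower (S100a8 and S100a9) and 3 higher (Csf3r, Siglecf and Cd79b). Among all loci tested 36.7% were called, so these calls are not read as a trait of those cells. No T or NK cell marker exceeded 15 fragments in any sample.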

How the data were processed

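Polyadenylated RNA of 10 samples was sequenced, and per the submitters' processing notes the tools named were bcl2fastq 2.17.1.14, FastQC 0.11.2 and TopHat2 2.1.1 with the build GRCm38; the counting program and strand setting are not given in the sources used here. The authors deposited a count column and a normalized column for 46957 loci. The deposited counts are not whole and were named expected counts: each is a multiple of a step per sample (0.888 to 1.17), and dividing by it gave whole fragments within 0.05 for 99.78% to 99.96% of values per sample. The deposited normalized values were read as FPKM from how their ratio to the counts compared between samples. This is a reading from the values, and scaling by transcript length was not checked. Rows without a symbol held at most 0.00209% of fragments and were left out.

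Counts were tested with edgeR 4.0.16 (TMM, filterByExpr, quasi-likelihood F-test, Benjamini-Hochberg adjustment over 12500 loci, threshold 0.05) in R 4.3.3, with all 10 samples in the fit. Standard errors are the fold change divided by the root of F. DESeq2 1.42.0, limma-voom (limma 3.58.1), other scaling, no filter, a replicate block, the rRNA-derived loci as covariate or split and leaving out each sample were alternatives. Steps were tested on simulated data. The members and lists were chosen with earlier results of these data known. Members called with a change of at least 0.5 are given in every sample, and the 3 with the smallest adjusted p in each direction of each other list are named, except 1 that is not reported here. Gene positions come from GENCODE on GRCm38. Fragments of near-identical or overlapping genes cannot be separated where a locus lists several symbols.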

Additional observations from a re-analysis of the deposited data

Results flagged for a closer look

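Within each group of 5 samples, the gap between the highest or lowest sample and its nearest neighbour was set against the group's range (Dixon, 95%) for each of the 33 genes. Of 66 groups checked 3 stood out, and chance gives about 1 in 20, or 3.3. Srebf2 was high in JHU083 replicate 1, at 7.38 on the log2 CPM scale (166 CPM), which still lay below all vehicle samples. Dhcr7 was high in JHU083 replicate 3, at 5.23 on the log2 CPM scale (37.5 CPM). Acly was low in vehicle replicate 4, at 8.88 on the log2 CPM scale (472 CPM), above all JHU083 samples.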

How the results depend on the processing

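Over 22 alternatives to the reported analysis, the log2 fold changes of the 33 genes gave 722 comparisons, of which 685 kept their direction and side of the threshold, 28 lost a call, 8 gained one and 1 turned. That one was Fdft1, at -0.02 with scaling by library totals only. There the median of the sterol enzymes was -0.564, and the median of all loci was -0.07, against 0.01 as reported. With that scaling 66.8% of all calls were lower, against 49.97% as reported. Among the named genes of the other lists, 548 of 637 comparisons were kept, 72 lost a call and 8 gained one. The other 9 turned, all in Nr1h2 and Gramd1a: Nr1h2 was at 0.01 with the rRNA-derived loci as covariate and 0.04 in the samples with those loci at 0, and Gramd1a was at 0.06 in the other samples. When a sample was left out, Nr1h2 ranged from -0.07 to 0.01 and Gramd1a from -0.04 to 0.03.

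In the 3 vehicle and 2 JHU083 samples at 0, 12 of the 33 genes were lower, 6 sterol enzymes and 5 fatty acid genes, the sterol median was -0.365, and 532 loci were higher and 586 lower; these fits have fewer samples. In the samples above 0, 1335 loci were higher and 1518 lower. Leaving out each sample in turn left 23 to 26 genes lower and 0 to 1 higher (Insig1, without vehicle replicate 3), 13 to 15 sterol enzymes and 7 to 8 fatty acid genes lower, with medians of -0.503 to -0.433 and -0.399 to -0.295, and 1821 to 2899 loci higher and 1900 to 2930 lower.

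The labels do not say that equal replicate numbers mark paired mice, and same-numbered samples deviated together with r of -0.57 to 0.09, so the numbers were not taken as pairs. With the replicate number as a block, 23 genes were lower, 14 sterol enzymes and 6 fatty acid genes, with medians of -0.491 and -0.344, and 1612 loci were higher and 1757 lower. The ratio of Fads2 to Fads1 differed by -1.36 in the samples with the rRNA-derived loci at 0 and by -1.87 in the others, and that of Srebf1 to Srebf2 by -0.02 in the others; these were added after seeing the data. The cause of these changes was not tested.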
